A study of Mus musculus with 3 samples.

Results

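Foxp3 and 4 members of the Ikaros zinc finger family, Ikzf1 (Ikaros), Ikzf2 (Helios), Ikzf3 (Aiolos) and Ikzf4 (Eos), were followed through single-cell RNA sequencing of donor T cells after allogeneic bone marrow transplantation. These 5 genes were taken by name from the 18029 genes of the count table, and all 5 were present. B6D2F1 mice were irradiated and received B6 bone marrow, B6 T cells and a small number of TEa T cells, which carry a transgenic receptor for a recipient alloantigen and come from a Rag1-/- background. Recipients received daily saline or cyclosporine (CSA), at a lower dose of 5 mg/kg or a higher dose of 50 mg/kg, from day 0 to day 6, and spleens were collected on day 7 from 6 mice per group, with no age given. CSA is a calcineurin inhibitor, so all 3 groups share the irradiation, the graft and the mismatch, and differ in drug and dose. Spleens of 2 mice were joined into 1 pool, giving 3 pools per group, each marked with its own hashtag. Sorted CD4+ and CD8+ cells were mixed evenly within a group and loaded as 1 capture per group, so that capture and treatment cannot be told apart and a p-value measures the spread between pools of a capture.

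Foxp3 is the transcription factor that specifies regulatory T cells (Tregs), which restrain other T cells and depend on IL-2 signalling. Ikaros family proteins bind DNA through zinc fingers and recruit chromatin remodelling and histone deacetylase complexes. Ikaros limits T cell activation, Helios is abundant in many Tregs, Aiolos is linked to lymphocyte differentiation, and Eos is a partner of Foxp3 in gene silencing. Calcineurin dephosphorylates NFAT, a factor that drives Il2 and binds with Foxp3 at shared sites, and its inhibition by CSA keeps NFAT out of the nucleus.

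After TEa cells were set aside, 10091 CD4 cells and 10833 CD8 cells remained, with 3994968 to 7592334 UMIs (counted RNA molecules) per CD4 pool and 4392100 to 11454636 per CD8 pool. In order of rising dose from saline, median UMIs per cell were 3097, 4396 and 5979.5 in CD4 cells 4108, 6121.5 and 7183 in CD8 cells. All 10833 CD8 cells held a Cd8a UMI and none a Cd4 UMI, and all 10371 CD4 cells, TEa cells included, held a Cd4 UMI and none a Cd8a UMI, whereas Cd8b1 was counted in 3231 CD4 cells. The lineages were mixed before capture, so this clean split may come from how cells were assigned to a lineage, and it tests nothing. Cells with neither a Cd4 nor a Cd8a UMI are absent from the cells counted here. The same barcode occurred in more than 1 capture 218 times, and 1080 cells carried a further hashtag at 0.5 or more of the strongest. Summed markers of other cells moved with dose: the 7 B cell genes ranged from 156 to 170.0 CPM, UMIs scaled to a common library total in CD8 saline pools and from 336 to 369.5 at 50 mg/kg, the 5 erythroid genes from 3.89 to 17.6 and from 23.7 to 48.1, and the 3 plasma cell genes from 77.4 to 82.9 and from 252 to 398. In CD4 pools the B cell genes ranged from 176 to 192 with saline and from 257 to 271 at 50 mg/kg, and the erythroid genes from 3.21 to 14.5 and from 27.7 to 36.6. The cell cycle genes Mki67, Top2a and Pclaf summed to 2351 to 2515 CPM in CD8 saline pools and 785 to 907 at 50 mg/kg, and to 1446 to 1590.1 and 806 to 884 in CD4 pools. The 3 natural killer genes ranged from 15.6 to 21.2 in CD4 saline pools and from 28.8 to 31.3 at 50 mg/kg, and from 48.9 to 56.8 and from 47.0 to 48.7 in CD8 pools. The part of these genes in the results was not tested.

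Foxp3 lies on chromosome X (GRCm38.p6, which is mm10), at X:7579676-7595243. RefSeq holds 2 promoter windows for it, each from 250 bases before to 50 bases after a start site. They are shown because NFAT, which CSA acts on, is known to bind the short core GGAAA, and capitals mark every match to it, on the other strand as TTTCC.
Foxp3 promoter 1, chrX:7579426-7579725, plus strand: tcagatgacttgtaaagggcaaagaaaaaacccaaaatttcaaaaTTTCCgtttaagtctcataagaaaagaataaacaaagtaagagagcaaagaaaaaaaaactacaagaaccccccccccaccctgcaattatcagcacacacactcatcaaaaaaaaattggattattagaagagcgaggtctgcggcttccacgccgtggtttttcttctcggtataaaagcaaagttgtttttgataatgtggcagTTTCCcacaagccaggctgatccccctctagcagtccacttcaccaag
Foxp3 promoter 2, chrX:7580233-7580532, plus strand: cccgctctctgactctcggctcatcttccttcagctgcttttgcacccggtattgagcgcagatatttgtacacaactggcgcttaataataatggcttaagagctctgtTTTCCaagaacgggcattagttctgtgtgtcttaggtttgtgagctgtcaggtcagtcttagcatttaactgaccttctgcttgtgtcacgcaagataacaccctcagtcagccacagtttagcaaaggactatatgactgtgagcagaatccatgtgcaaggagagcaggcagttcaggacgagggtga
The window of promoter 1 holds 2 matches, which begin at -205 and 3 from the start site, and that of promoter 2 holds 1, at -140. Of 32851 mouse promoter windows of this length, 61.3% hold at least 1 match and 26.7% hold 2 or more, with a median of 1. The GC content is 40.7% and 47.7%, against a median of 52.7% over all windows. Ikzf1 (11:11684962-11772930) has 2 RefSeq windows, chr11:11685675-11685974 and chr11:11689927-11690226, with GC contents of 81.3% and 49.0% and with 0 matches each. A match describes the letters in the window and is neither a binding site nor a cause. Ikzf2 (1:69531207-69687351), Ikzf3 (11:98464610-98546031) and Ikzf4 (10:128630839-128669671) are named without a sequence.

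Across the sorted lineages, CSA at 50 mg/kg went with lower Ikzf1, Ikzf2 and Ikzf3 in both CD4 and CD8 cells, while Foxp3 was higher in CD4 cells and far lower in CD8 cells. UMIs were summed per pool and scaled by TMM, a method that centres most genes, and tested by edgeR's quasi-likelihood method, with p-values adjusted by Benjamini-Hochberg over all genes. In summed data, fewer cells that express a gene and less RNA per cell cannot be told apart. In CD4 cells 3 of the 4 genes tested were called at 5 mg/kg and 4 of 4 at 50 mg/kg, against a background of 51.7% and 70.5% of all genes, and in CD8 cells 3 of 4 and 4 of 4, against 60.2% and 74%. Between the doses 3 of 4 were called in each lineage, against 41.2% in CD4 cells and 41% in CD8 cells. With this much of the transcriptome changed and 4 genes tested, the number of members called is not read as a result, and sizes and directions carry the description. Ikzf4 did not pass the filter on low counts within either lineage.

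**Figure D1:**
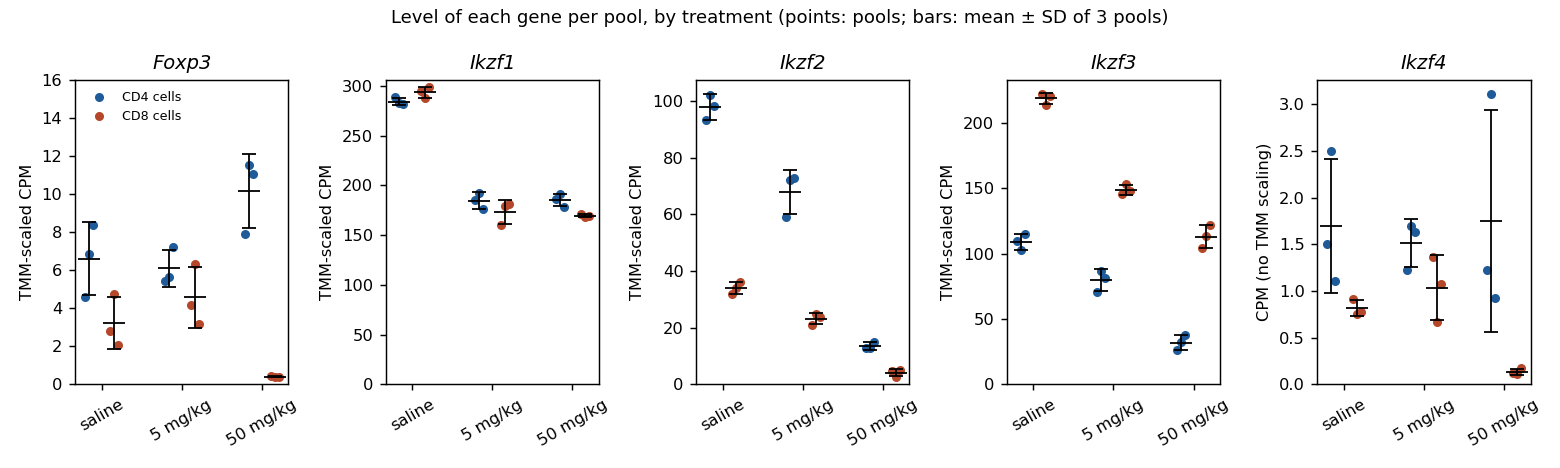
Level of each gene in each pool by treatment, in TMM-scaled CPM (Ikzf4 in plain CPM), with CD4 pools in blue and CD8 pools in red; lines give the mean ± SD of 3 pools. Ikzf2 and Ikzf3 step down with dose in both lineages, Ikzf1 is at a like level at both doses, and Foxp3 separates the lineages at 50 mg/kg.

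The scale of all genes shifted with treatment. With scaling by library size alone, the median log2 change of all genes was -0.37 at 5 mg/kg and -0.45 at 50 mg/kg in CD4 cells, and -0.43 and -0.53 in CD8 cells. The CD4 calls at 50 mg/kg then split into 1599 higher and 6239 lower, against 3669 and 3785 with TMM, and the CD8 calls into 1690 and 6794, against 4021 and 4003. At 5 mg/kg the corresponding splits were 926 and 5718 against 2758 and 2709 in CD4 cells, and 1180 and 6270 against 3241 and 3282 in CD8 cells. The changes that follow are relative to the TMM centre.

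In CD4 cells Foxp3 stood at 4.61, 6.82 and 8.39 TMM-scaled CPM in the saline pools, at 5.42, 5.65 and 7.20 at 5 mg/kg, and at 7.92, 11.5 and 11.05 at 50 mg/kg. The lowest 50 mg/kg pool lay below the highest saline pool, so these groups overlapped, and the 5 mg/kg pools lay inside the saline range. At 50 mg/kg Foxp3 rose, with a log2 change of 0.59 (SE 0.20, adjusted p = 0.0139, edgeR with Benjamini-Hochberg), and against 5 mg/kg one of 0.72 (SE 0.22, adjusted p = 0.0122, same test). At 5 mg/kg the log2 change was -0.13 (SE 0.24, adjusted p = 0.681, edgeR with Benjamini-Hochberg). The rise depended on the scaling: with library size alone it was 0.15 (adjusted p = 0.509, edgeR with Benjamini-Hochberg). Without saline pool 1 it was 0.42 (adjusted p = 0.0716) and without 50 mg/kg pool 2 it was 0.50 (adjusted p = 0.0578, both edgeR with Benjamini-Hochberg).

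In CD8 cells, which as a rule do not express Foxp3, the level was 2.81, 4.73 and 2.08 TMM-scaled CPM with saline, 4.19, 6.33 and 3.19 at 5 mg/kg, and 0.416, 0.398 and 0.409 at 50 mg/kg. All 3 pools at 50 mg/kg lay below every other pool, with 3, 3 and 4 Foxp3 UMIs in whole pools. The groups held 90, 77 and 10 UMIs. At 50 mg/kg the log2 change of Foxp3 was -2.94 (SE 0.46, adjusted p = 1.75e-05, edgeR with Benjamini-Hochberg) and -3.40 against 5 mg/kg (SE 0.47, adjusted p = 1.56e-05, same test). Foxp3 passed the filter on low counts through the saline and 5 mg/kg pools, so this fall and its p-values are a description. With no filter the log2 change at 50 mg/kg against saline was -2.93. The change at 5 mg/kg was 0.47 (SE 0.31, adjusted p = 0.200, edgeR with Benjamini-Hochberg), and without saline pool 2 it was 0.88 (adjusted p = 0.0281, same test).

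Over all groups together, 66.7% of the Foxp3 UMIs in CD4 cells lay in a small cluster, and with saline 45.5% did. The authors' CD4 cluster C11 is annotated as Treg, and its 104 cells carried higher levels than other CD4 cells of 7 of 7 Treg markers, among them Foxp3 (551 against 2.64 CPM), Ctla4, an inhibitory receptor (684 against 81.1), Il2ra, the high-affinity IL-2 receptor chain (309 against 64.1), and Tnfrsf18, also known as GITR (621 against 179). The remaining markers, Ikzf2, Tnfrsf4 and Izumo1r, stood at 423, 870.1 and 169.9 CPM in C11, and at 55.3, 208 and 63.7 in other CD4 cells. The clusters were made from these counts, so the levels describe C11 and test nothing. A Foxp3 UMI was found in 84 of its 104 cells (80.8%) and in 70 of the 9987 CD4 cells outside it (0.701%).

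The part of the CD4 Foxp3 UMIs in C11 was 45.5% with saline, then 50.6% and 87.8% with rising dose. Its cells numbered 2, 10 and 8 in the saline pools, 5, 9 and 11 at 5 mg/kg, and 16, 21 and 22 at 50 mg/kg, given as a description because Foxp3 and Ikzf2 helped to define the cluster. Outside C11, the cells with a Foxp3 UMI numbered 8, 12 and 9 with saline, 6, 3 and 19 at 5 mg/kg, and 3, 3 and 7 at 50 mg/kg. The 19 cells of 5 mg/kg pool 3 stood apart from the other pools. With C11 left out, the log2 difference of Foxp3 in CD4 cells between the higher dose and saline was -1.55, a description because C11 was drawn from counts that include Foxp3.

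**Figure D2:**
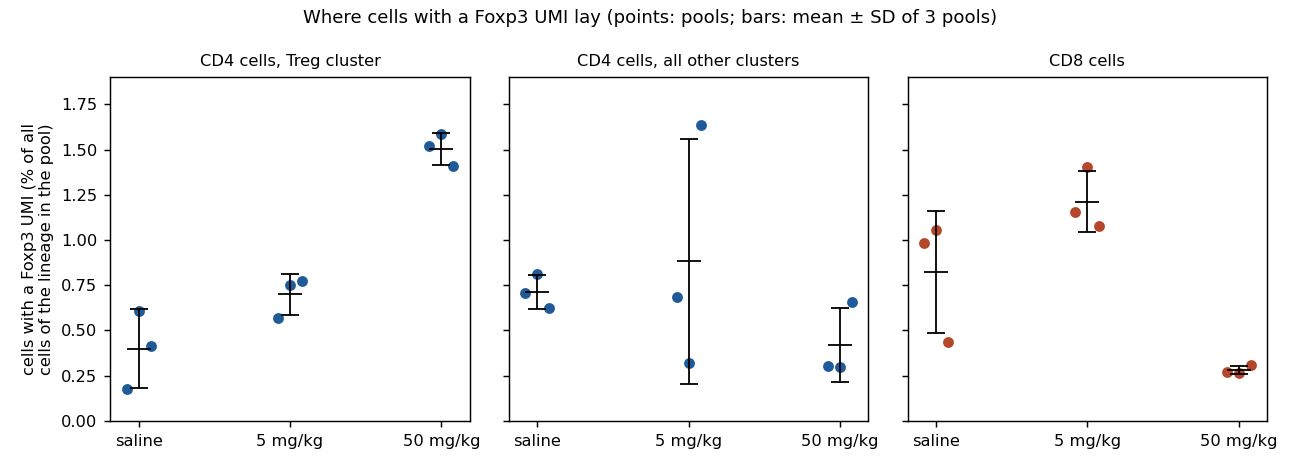
Cells with at least 1 Foxp3 UMI in each pool, as a percentage of all cells of the lineage in that pool, for the CD4 Treg cluster, all other CD4 clusters and CD8 cells; lines give the mean ± SD of 3 pools. Treg cluster cells with a Foxp3 UMI make up 1.41% to 1.58% of CD4 cells at 50 mg/kg, above every saline and 5 mg/kg pool, while CD8 cells with a Foxp3 UMI drop to 0.267% to 0.310%.

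Of CD4 cells, 0.881%, 1.42% and 1.04% held a Foxp3 UMI in the saline pools, 1.26%, 1.07% and 2.41% at 5 mg/kg, and 1.82%, 1.88% and 2.06% at 50 mg/kg. The saline and 50 mg/kg pools did not overlap, and the means were 1.11 ± 0.277%, 1.58 ± 0.726% and 1.92 ± 0.126% (SD, n = 3 pools each). The exact two-sided permutation test of a trend over the 9 pools gave p = 0.0738, or 0.185 after Benjamini-Hochberg adjustment over 5 such values. That test cannot go below 0.00119, and 3 pools against 3 cannot go below 0.1. When each cell was thinned to 2000 UMIs, which leaves out 395, 452 and 80 shallower CD4 cells, the shares were 0.816%, 0.866% and 1.37% (exact permutation p = 0.0417, adjusted 0.104).

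Droplet data hold some free RNA, so the share of cells with a Foxp3 UMI is set beside that in CD8 cells, which as a rule do not express the gene. The CD8 share is not taken as the level of free RNA, because 37 of the 80 CD8 cells with a Foxp3 UMI held 2 or more. In CD8 cells 38 of 4639 held a Foxp3 UMI with saline (0.819%), 32 of 2662 at 5 mg/kg (1.20%) and 10 of 3532 at 50 mg/kg (0.283%, exact 95% interval 0.136% to 0.520%, counting error only). CD4 cells outside C11 stood at 29 of 4038 (0.718%), 28 of 2944 (0.951%) and 13 of 3005 (0.433%), at median depths of 3095.5, 4402 and 6010 UMIs against 4108, 6121.5 and 7183 in CD8 cells. With saline and 5 mg/kg this share was below that of CD8 cells, so it is not read as a difference between the lineages. Of the 29 saline cells, 14 held 2 or more Foxp3 UMIs, and the part of free RNA was not tested. With the higher dose it lay above the CD8 share, with overlapping exact 95% intervals (0.231% to 0.739% outside C11). The CD8 share was lowest in the group with the deepest cells, and after thinning to 2000 UMIs it was 0.553%, 0.717% and 0.0853%.

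The CD8 UMIs were not spread evenly over cells. Of the 80 CD8 cells with a Foxp3 UMI, 37 held 2 or more and the highest held 10 in 1 cell. With saline 21 CD8 cells held 2 or more and at 5 mg/kg 16 did. At 50 mg/kg 0 of 3532 cells did, which allows a share of up to 0.0849%. An Ikzf2 UMI was present in 17 of the 38 saline CD8 cells with a Foxp3 UMI (44.7%, against 14.6% of all CD8 cells), in 13 of 32 at the lower dose (40.6% against 11.6%) and in 0 of 10 at the higher dose (against 2.49%). The per-pool CD8 shares averaged 0.825 ± 0.338%, 1.21 ± 0.169% and 0.282 ± 0.0243% (SD, n = 3 pools), without a monotonic order, and the exact permutation trend test, chosen after seeing the data, gave p = 0.388 (adjusted 0.485). In the clusters, CD8 cells with a Foxp3 UMI ranged from 0.125% of C5, annotated as Tcf7hi, to 0.940% of C6, annotated as Fcer1ghi, with C0 at 0.936%, and no CD8 cluster approached the 80.8% of C11.

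Within C11, Foxp3 stood at 635, 649 and 1055 CPM in the saline pools, 550.2, 583 and 312 at 5 mg/kg, and 475, 516 and 570.0 at 50 mg/kg. The saline pools lay above all 5 and 50 mg/kg pools, with means of 779 ± 238, 482 ± 148 and 520.4 ± 47.5 CPM (SD, n = 3). The exact permutation trend test gave p = 0.0417, or 0.185 after adjustment. Read as UMIs per cell, the means were 2.77, 1.84 and 2.79, so the order of saline and 50 mg/kg turned. Over 877 genes in pools with at least 3 C11 cells, which drops saline pool 1 with its 2 cells, Foxp3 changed by -0.78 (log2) at 50 mg/kg (SE 0.29, adjusted p = 0.0417, edgeR with Benjamini-Hochberg). C11 was drawn from counts that include Foxp3, so its levels and p-values there are a description. The saline side of this fit rests on pools with 10 and 8 cells. In that fit 35% of genes were called at the higher dose and 7.53% at the lower. At 5 mg/kg none of Foxp3, Ikzf2 and Ikzf3 was called (adjusted p = 0.0824, 0.745 and 0.302, edgeR with Benjamini-Hochberg). Foxp3 alone had an unadjusted p under 0.05 there, at 0.00992.

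**Figure D3:**
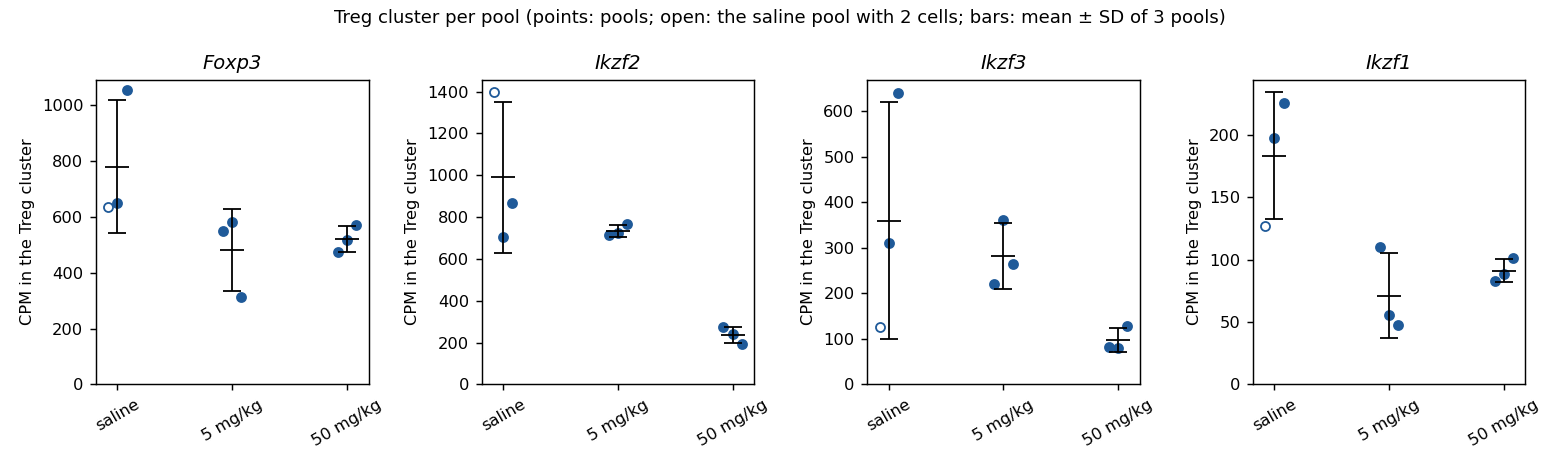
Level of 4 genes within the CD4 Treg cluster (C11) in each pool, in CPM of the cluster's UMIs; the open point is the saline pool with 2 cells and lines give the mean ± SD of 3 pools. Ikzf2 at 50 mg/kg lies at 193 to 273 CPM in all 3 pools, below the lowest saline pool at 705.

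Helios was also lower inside the Treg cluster, whose cells were assigned from counts that include it. Ikzf2 stood at 1396, 705 and 866 CPM in C11 with saline, 715, 722 and 768 at 5 mg/kg, and 273, 242 and 193 at 50 mg/kg, without overlap between 50 mg/kg and the other groups. Its log2 change at 50 mg/kg was -1.83 (SE 0.29, adjusted p = 6.30e-05, edgeR with Benjamini-Hochberg). Ikzf3 stood at 127, 310.2 and 640.3 CPM with saline, 220.1, 361 and 264 at 5 mg/kg, and 83.2, 80.6 and 129 at 50 mg/kg, where saline pool 1, with 1 UMI, reached into the 50 mg/kg range. It fell by 2.31 (SE 0.44, adjusted p = 0.000415, edgeR with Benjamini-Hochberg). Ikzf1 was below the filter there, with 127, 197 and 226 CPM in the saline pools and 83.2, 88.7 and 101 at 50 mg/kg.

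The share of CD4 cells with a Foxp3 UMI that also held an Ikzf2 UMI overlapped between groups. It averaged 58.7 ± 19.2%, 62.7 ± 15.0% and 50.1 ± 18.3% (SD, n = 3 pools), with an exact permutation trend p of 0.732. Median depth of these cells was 3645.5, 4321 and 5333 UMIs, and thinned to 2000 UMIs the shares were 51.7%, 60.7% and 39.7%. For Ikzf4, whose product Eos works with Foxp3, the shares were 6.98 ± 7.15%, 13.9 ± 9.01% and 11.9 ± 8.12% (adjusted p = 0.485, exact permutation trend test). These shares rest on 46, 49 and 59 cells.

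Ikzf1, the founding member of the family, was lower at both doses by like amounts in TMM-scaled CPM. In CD4 pools it stood at 288, 282 and 282 TMM-scaled CPM with saline, 186, 193 and 176 at 5 mg/kg, and 187, 191 and 178 at 50 mg/kg. In CD8 pools the values were 295, 288 and 299, then 159.8, 179 and 181, then 171, 168 and 169. In each lineage every treated pool lay below every saline pool. The CD4 log2 change was -0.62 at 5 mg/kg (SE 0.05, adjusted p = 2.77e-10) and -0.62 at 50 mg/kg (SE 0.04, adjusted p = 6.48e-11, both edgeR with Benjamini-Hochberg). In CD8 cells it was -0.75 (SE 0.05, adjusted p = 1.79e-10) and -0.79 (SE 0.05, adjusted p = 2.59e-11, both edgeR with Benjamini-Hochberg). The difference between the doses was 0.01 in CD4 cells (SE 0.05, adjusted p = 0.936) and -0.04 in CD8 cells (SE 0.05, adjusted p = 0.561, both edgeR with Benjamini-Hochberg), and the pools of the 2 doses overlapped. With library size scaling the CD8 difference was -0.14 (adjusted p = 0.0242, edgeR with Benjamini-Hochberg).

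Ikzf2 had the steepest fall of the 4 genes tested in CD4 cells at 50 mg/kg. CD4 pools held 93.2, 102 and 98.4 TMM-scaled CPM with saline, 59.1, 72.1 and 72.9 at 5 mg/kg, and 12.7, 12.8 and 15.1 at 50 mg/kg. CD8 pools held 32.0, 33.9 and 36.2, then 21.0, 25.0 and 23.7, then 4.72, 2.66 and 5.01. The 3 groups did not overlap in either lineage, and the level stepped down with each dose. The CD4 log2 change was -0.52 at 5 mg/kg (SE 0.07, adjusted p = 5.97e-06) and -2.85 at 50 mg/kg, or 7.21-fold lower (SE 0.09, adjusted p = 2.33e-16, both edgeR with Benjamini-Hochberg). In CD8 cells the log2 changes were -0.54 (SE 0.11, adjusted p = 0.000398) and -3.02, or 8.11-fold lower (SE 0.14, adjusted p = 1.67e-12, both edgeR with Benjamini-Hochberg). The share of CD4 cells with an Ikzf2 UMI went from 24.1 ± 0.949% with saline to 5.82 ± 1.06% at 50 mg/kg (SD, n = 3 pools), against the rise in median depth.

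Ikzf3 fell in both lineages and by unequal amounts. CD4 pools held 109.8, 103 and 115 TMM-scaled CPM with saline, 70.7, 87.0 and 81.1 at 5 mg/kg, and 26.0, 32.0 and 37.5 at 50 mg/kg. CD8 pools held 222, 213 and 220.4, then 145, 153 and 148, then 104, 113 and 122. The groups did not overlap in either lineage. The CD4 log2 change of Ikzf3 was -0.45 at 5 mg/kg (SE 0.09, adjusted p = 0.000163) and -1.77 at 50 mg/kg (SE 0.09, adjusted p = 5.20e-13, both edgeR with Benjamini-Hochberg). In CD8 cells it was -0.55 (SE 0.05, adjusted p = 4.85e-08) and -0.95 (SE 0.05, adjusted p = 1.17e-11, both edgeR with Benjamini-Hochberg).

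Ikzf4 was rare, with 26, 23 and 36 UMIs in CD4 cells and 18, 19 and 4 in CD8 cells over whole groups. CD4 pools held 1.50, 2.49 and 1.10 CPM with saline, 1.22, 1.70 and 1.63 at 5 mg/kg, and 1.22, 3.11 and 0.922 at 50 mg/kg, all overlapping. CD8 pools held 0.911, 0.752 and 0.778, then 1.37, 0.671 and 1.07, then 0.120, 0.115 and 0.175, and the 50 mg/kg pools, with 1, 1 and 2 UMIs, lay below all others. Without the filter the CD8 log2 change at 50 mg/kg was -1.89 (SE 0.77, adjusted p = 0.0284, edgeR with Benjamini-Hochberg).

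CD4 and CD8 cells of a pool share mice and capture, so the lineages can be set side by side. In fits with the pool as a block, 4 of 5 members differed between CD8 and CD4 cells, against 44.4% of all genes. Ikzf3 was higher in CD8 cells by 1.27 on the log2 scale (SE 0.11, adjusted p = 1.91e-07, edgeR with Benjamini-Hochberg), in 9 of 9 pools. Foxp3 was lower by 1.57 (SE 0.40, adjusted p = 0.00495), Ikzf2 by 1.50 (SE 0.06, adjusted p = 3.76e-11) and Ikzf4 by 1.39 (SE 0.36, adjusted p = 0.00543, all edgeR with Benjamini-Hochberg). The Foxp3 difference averages over unlike groups and was widest at 50 mg/kg. In the joint scaling, mean Foxp3 in CD4 and CD8 cells was 6.47 and 3.32 CPM with saline and 5.96 and 4.63 at 5 mg/kg. At 50 mg/kg the means were 9.93 and 0.414 CPM. Ikzf4 passed the filter of this joint fit through CD4 pools, where it was higher, so its difference and its place in the count are a description. Ikzf1 differed by 0.01 (SE 0.04, adjusted p = 0.866, edgeR with Benjamini-Hochberg), while with saline pools only it was 0.11 higher in CD8 cells (adjusted p = 0.00626, same test).

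The response to 50 mg/kg differed between the lineages for 4 of 5 members, against 19.8% of all genes, by the lineage by treatment interaction. The CD8 change minus the CD4 change was -3.56 for Foxp3 (SE 0.50, adjusted p = 1.00e-05), 0.80 for Ikzf3 (SE 0.08, adjusted p = 1.66e-07), -0.20 for Ikzf1 (SE 0.06, adjusted p = 0.0179) and -2.30 for Ikzf4 (SE 0.77, adjusted p = 0.0369, all edgeR with Benjamini-Hochberg). Ikzf3 thus fell by the larger factor in CD4 cells, and Foxp3, Ikzf1 and Ikzf4 ended lower in CD8 cells relative to their change in CD4 cells. Foxp3 and Ikzf4 passed the filter through the pools where they were high, so their differences and their place in the count are a description. The number of members called is not read as a result. For Ikzf2 the difference was -0.21 (SE 0.17, adjusted p = 0.456, edgeR with Benjamini-Hochberg), which is within the spread between pools. The calls of Ikzf1 and Ikzf4 were lost without saline pool 3 (-0.18 and -2.07, adjusted p = 0.0706 and 0.106) and without 50 mg/kg pool 2 (-0.17 and -1.54, adjusted p = 0.0808 and 0.292, all edgeR with Benjamini-Hochberg). Ikzf4 also lost its call without saline pool 1 (-2.16, adjusted p = 0.0992), without 50 mg/kg pool 1 (-2.38, adjusted p = 0.0679) and with no filter (-2.31, adjusted p = 0.0650, all edgeR with Benjamini-Hochberg). At 5 mg/kg 0 of 5 differed by edgeR, against 3.65% of all genes, with 1 gene, Ikzf1 (-0.16), at an unadjusted p under 0.05.

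The authors' 13 CD4 and 9 CD8 clusters show where each gene was high, in plain CPM of the cluster's UMIs over pools with at least 3 cells. These levels describe clusters drawn from the same counts, and neighbours in the order are given as apart only where the gap between means exceeds the larger SD. For Foxp3 in CD4 cells, C11 stood apart in each treatment group and no other neighbours did. With saline C11 was at 852 ± 287 CPM (SD, n = 2 pools) and the next, C8, at 15.2 ± 26.3 (n = 3 pools). Ikzf4 was also highest in C11 with saline, at 94.1 ± 26.5 CPM from 6 UMIs.

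Helios was highest in C11 and next in the follicular helper cluster. With saline, Ikzf2 was at 786 ± 114 CPM in C11 (n = 2 pools), 264 ± 25.4 in C4, the follicular helper cells, and 137 ± 36.6 in C8, with C11 apart from C4 and C4 apart from C8, and 5 of the 12 neighbouring pairs were apart in all. At 50 mg/kg C11 was at 236 ± 40.4 CPM, C12, the Th17 cells, at 56.0 ± 48.6 and C4 at 55.6 ± 23.8, and the last pair were not apart. Among CD8 clusters with saline, C5 (Tcf7hi) led with 106 ± 13.1, followed by C8, the exhausted cells, with 65.7 ± 14.7, and naive C7 was last with 4.65 ± 4.04. At 50 mg/kg naive C7 was first with 12.9 ± 4.24 CPM and was not apart from C6 at 7.80 ± 7.85.

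Aiolos was highest in C11 among CD4 clusters, at 475 ± 233 CPM (n = 2 pools) against 193 ± 48.1 in C4, with saline. In CD8 cells with saline the leading clusters C0, the Cd226hi effectors, at 358 ± 8.30, C8 at 343 ± 35.3 and C5 at 332 ± 14.0 were not apart from each other as neighbours, and naive C7 was lowest at 87.7 ± 41.7. Ikaros was highest with saline in CD4 clusters C4 (433 ± 23.5), C6, the cycling Cd226hi cells (431 ± 32.5), and C0 (411 ± 16.7), which were not apart, and C12 was lowest at 163 ± 110.0. In C11 Ikzf1 was 212 ± 20.2 CPM with saline and 91.0 ± 9.20 at 50 mg/kg, the lowest cluster at that dose. In CD8 cells cycling Cd226hi C4 was first in each group, at 456 ± 4.77, 476 ± 43.4 and 342 ± 49.3 CPM for saline, 5 mg/kg and 50 mg/kg.

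**Figure D4:**
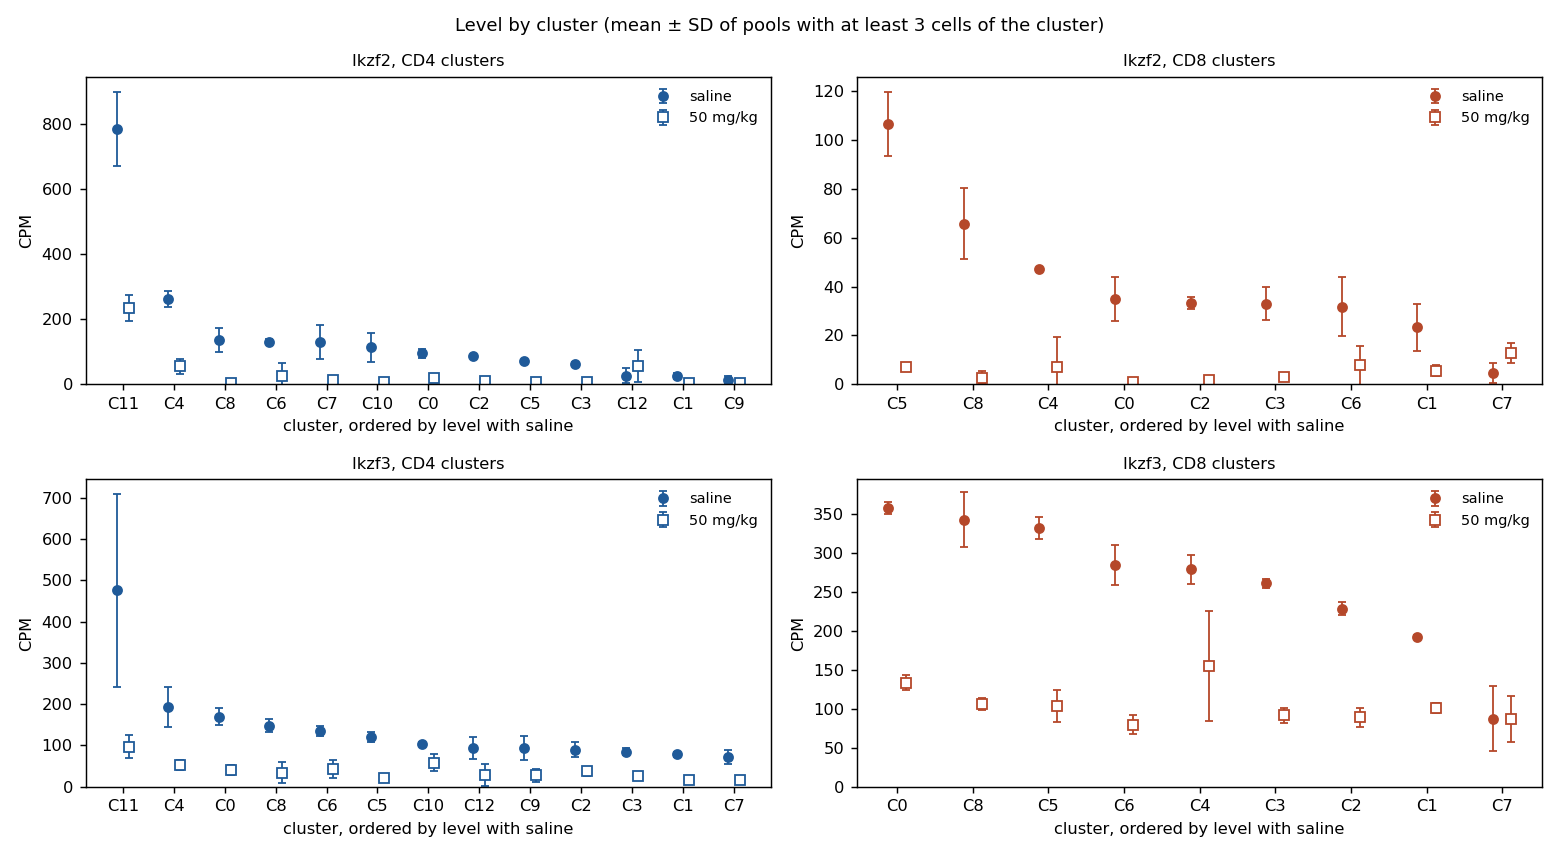
Level of Ikzf2 and Ikzf3 in each CD4 cluster (left) and CD8 cluster (right), with saline and at 50 mg/kg, in CPM as mean ± SD of pools with at least 3 cells; clusters are ordered by their saline level. Ikzf2 in C11 goes from 786 to 236 CPM and stays above the other CD4 clusters, and the Ikzf2 mean is higher at 50 mg/kg than with saline in CD4 C12 (56.0 against 27.3 CPM) and CD8 C7 (12.9 against 4.65 CPM).

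The falls of Ikzf2 and Ikzf3 were also found within clusters, and shifts of cell states inside a cluster were not tested. Each cluster was fitted on pools with at least 10 of its cells, and the clusters were drawn from counts that include these genes. In CD4 cells at 50 mg/kg, Ikzf2 fell in 8 of 9 clusters where it could be tested, Ikzf3 in 8 of 9 and Ikzf1 in 6 of 11, against a background of genes called lower of 1.24% to 28.2% by cluster, or 15.4% of all tests of genes within clusters. In CD8 cells Ikzf2 fell in 6 of 6, Ikzf3 in 7 of 8 and Ikzf1 in 7 of 8, against 2.26% to 30.3% or 22.1% of all such tests. No cluster had a higher call for any of them. The median log2 change over CD4 clusters was -2.79 for Ikzf2, -1.66 for Ikzf3 and -0.62 for Ikzf1.

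The steepest Ikzf2 changes were -4.36 (log2) in CD8 C0, the Cd226hi effectors (SE 0.53, adjusted p = 7.72e-11), and -4.23 in CD4 C8, the Fcer1ghi cells (SE 0.47, adjusted p = 4.15e-10, both edgeR with Benjamini-Hochberg). In CD4 C2, the Tcf7hi precursor-like cells, Ikzf1 changed by -0.02 (SE 0.13, adjusted p = 0.946) while Ikzf2 fell by 2.79 (SE 0.28, adjusted p = 6.75e-11) and Ikzf3 by 1.02 (SE 0.23, adjusted p = 0.000751, all edgeR with Benjamini-Hochberg). Ikzf1 also did not pass in C1, C3, C4 and C6, with log2 changes of -0.26, -0.17, -0.16 and 0.17. In C6, with 34 cells at 50 mg/kg, none of them passed (Ikzf2 -1.68, Ikzf3 -1.73, adjusted p = 0.142 and 0.0994, edgeR with Benjamini-Hochberg). The single CD8 cluster in which Ikzf3 did not pass was naive C7, with a log2 change of -0.02. In CD8 C0 and C1, the effector clusters, Foxp3 had 29 and 19 UMIs with saline, 13 and 20 at the lower dose, and 1 and 1 at the higher. It passed the filter through the groups where it was high, so its fall there is a description.

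**Figure D5:**
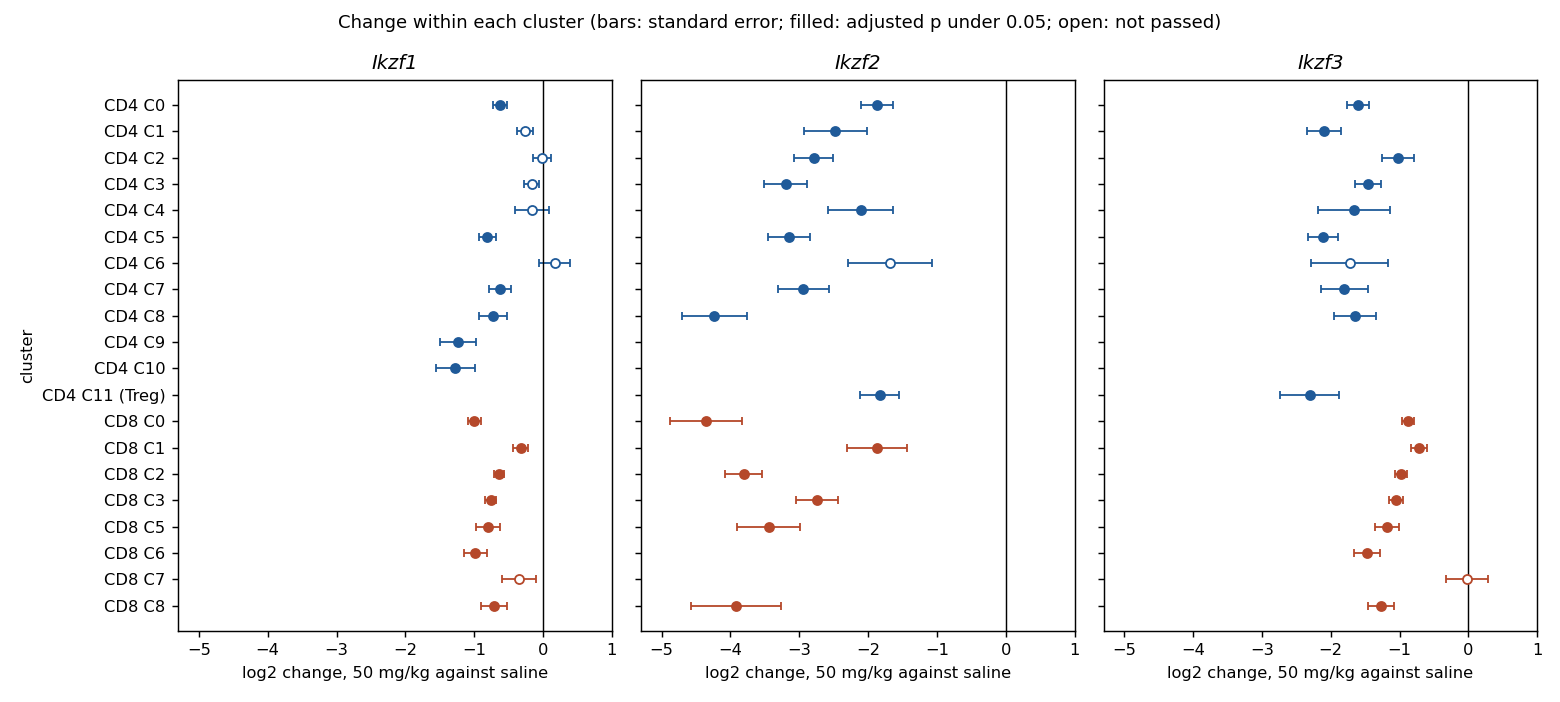
Log2 change at 50 mg/kg against saline within each cluster for Ikzf1, Ikzf2 and Ikzf3, with bars for the standard error; filled points have an adjusted p under 0.05 and open points do not, and clusters in which a gene could not be tested have no point. Filled points for Ikzf2 run from -1.83 in the Treg cluster to -4.36 in CD8 C0, while Ikzf1 sits close to 0 in CD4 C1 to C4 and C6.

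At 5 mg/kg the within-cluster calls were fewer. Ikzf1 fell in 6 of 11 CD4 and 6 of 9 CD8 clusters, Ikzf2 in 2 of 9 and 1 of 7, and Ikzf3 in 1 of 9 and 6 of 9. Of all tests of genes within clusters at this dose, 5.53% were called lower in CD4 and 9.46% in CD8 cells. Foxp3 passed in 0 of 2 CD8 clusters by edgeR, with a log2 change of 1.16 in C0 (adjusted p = 0.183, same test), and with 0 of 2 at an unadjusted p under 0.05.

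The genes around these factors were described as whole lists at 50 mg/kg, with the counts called higher and lower and, beside them, the counts under library size scaling. Of all genes, 34.7% rose and 35.8% fell in CD4 cells, and 37.1% and 36.9% in CD8 cells. Of 18 Treg-associated genes tested of 20, 4 rose, 12 fell and 2 did not pass in CD4 cells, with a median log2 change of -0.92 against -0.01 for all genes (library size scaling: 2 rose and 13 fell). In CD8 cells 4 rose, 11 fell and 3 did not pass, with a median of -0.67 against 0.00 (3 rose and 13 fell). Those that fell include Izumo1r, the folate receptor FR4 of Tregs and anergic cells (-2.88 in CD4 and -3.43 in CD8 cells), Ccr8, a chemokine receptor (-2.89 and -3.32), Nrp1, the coreceptor neuropilin (-2.13 and -2.32), and Tigit, an inhibitory receptor (-1.93 and -0.88). Tnfrsf4, the costimulatory receptor OX40, fell by 0.54 in CD4 cells and by 3.92 in CD8 cells. Capg, an actin capping protein (1.86 and 1.55), Itgae, the integrin chain CD103 (1.24 and 3.25), and Socs2, a cytokine signalling suppressor (0.69 and 2.08), rose in both.

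The signals that act on Foxp3 moved mostly down. Of 20 genes, 4 rose, 13 fell and 3 did not pass in CD4 cells, with a median log2 change of -0.65 (library size scaling: 1 rose and 18 fell), and in CD8 cells 3 rose, 14 fell and 3 did not pass, with a median of -0.68 (1 and 18). The NFAT genes Nfatc1 (-1.06 in CD4 and -1.22 in CD8 cells) and Nfatc2 (-1.21 and -1.21) fell, as did Stat5b, which relays IL-2 signals (-1.54 and -1.36), Smad3, which relays TGF-β signals (-1.47 and -1.25), Rel (-1.18 and -1.07) and Tet2, a demethylating enzyme (-1.72 and -1.75). Nr4a1, an early gene of receptor signalling, rose (1.53 and 1.85) and its relative Nr4a3 fell (-1.68 and -2.23).

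Partners of the 5 proteins showed no such lean under TMM. Among 11 Foxp3 partners, 5 rose, 3 fell and 3 did not pass in CD4 cells (median 0.13), and 4, 5 and 2 in CD8 cells (median -0.09), while library size scaling gave 0 rising and 8 falling in CD4 cells, and 2 and 8 in CD8 cells. Runx1 (-0.93 and -0.83) and Ets1 (-0.88 and -0.99) fell, and Gata3 rose (0.53 and 0.43). Among 15 genes tested of 16 for Ikaros corepressor complexes, 8 rose and 5 fell in CD4 cells (median 0.23), and 6 rose and 6 fell in CD8 cells (median 0.06), against 1 and 9, and 1 and 13, with library size scaling. Sin3b, a scaffold of deacetylase complexes, rose (0.87 and 1.10) while its paralogue Sin3a (-0.83 and -1.05) and the remodeller Chd4 (-0.56 and -0.67) fell.

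The remaining relatives were Ikzf5, Foxp1 and Foxp4 of 4 listed. Ikzf5 (Pegasus, 7:131388649-131410518) fell by 0.53 (log2) in CD4 cells (adjusted p = 0.00269) and by 0.92 in CD8 cells (adjusted p = 1.35e-06, both edgeR with Benjamini-Hochberg), Foxp1 rose (0.34 and 0.77) and Foxp4 fell (-0.69 and -0.23). In the cereblon ubiquitin ligase, through which drugs of the thalidomide class degrade Ikaros and Aiolos, 1 of 5 genes rose and 3 fell in CD4 cells, and 1 rose and 4 fell in CD8 cells. Crbn itself changed by -0.23 and -0.19.

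The genes whose pattern over the 22 clusters was most like each member were found by Pearson's r of log2(CPM + 1) among 10373 genes, as a description. For Foxp3 they were Pim1 (r = 0.82), a kinase gene, Ppp1r3f (0.76) and Wars (0.73), each with its highest level in C11. Ppp1r3f (X:7558562-7574281) is the neighbour of Foxp3, with 5394 bases and 0 genes between them in RefSeq, but in the GENCODE vM21 annotation the Foxp3 gene model begins earlier and overlaps it by 640 bases on the opposite strand. Ccdc22 shares 1435 bases with the other end of Foxp3, again on the opposite strand. Reads in these overlaps could be assigned to either gene unless counting used strand, which is not given in the sources used here.

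For Ikzf1 the nearest were Ankle2 (0.97), Foxn2 (0.95) and Ptbp2 (0.95), for Ikzf2 Aim2 (0.89), Psen2 (0.88) and Abcc4 (0.88), for Ikzf3 Fuca2 (0.85), Ubash3b (0.82) and Cerk (0.81), and for Ikzf4 Mlycd (0.79), Gm10130 (0.79) and Nsmce3 (0.77). Among the members, Foxp3 was most like Ikzf4 (0.70) and Ikzf2 (0.53), and least like Ikzf1 (-0.20). The points share libraries, and clusters differ in depth.

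T cell receptors were read from the same cells. Of 56 C11 cells with a paired clonotype, 1 (1.79%, exact 95% interval 0.0452% to 9.55%) shared it with another cell of its pool, against 1355 of 5831 other CD4 cells (23.2%). Of CD4 cells with a Foxp3 UMI outside C11, 5 of 35 did (14.3%, interval 4.81% to 30.3%). Of CD8 cells with a Foxp3 UMI, 16 of 45 did (35.6%, interval 21.9% to 51.2%), beside 2155 of 6746 other CD8 cells (31.9%). The intervals cover counting error only, and cells of a clone are not independent.

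The TEa cells, all of 1 specificity, give a further view. A Foxp3 UMI was found in 0 of 123 TEa cells with saline, which allows up to 2.44% of cells with a UMI and sets no limit on cells that express the gene, in 0 of 130 at 5 mg/kg (up to 2.31%) and in 1 of 27 at 50 mg/kg. Ikzf2 was at 102 CPM from 54 UMIs with saline, 53.6 from 41 UMIs at 5 mg/kg, and 0 UMIs at 50 mg/kg, where 3 UMIs would be 13.1 CPM. Ikzf1 was at 292, 137 and 165 CPM and Ikzf3 at 123, 65.3 and 74.0. TEa cells were summed over each group, so these values have no replicate error.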

How the data were processed

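The 5 genes and the gene lists were chosen with earlier results of these data known. The deposited count table gives unnormalized UMI counts for each gene in each cell, produced with Cell Ranger and Seurat 3.0.0 against mm10 per the submitters' processing notes. The deposited cell table holds the authors' hashtag pool, clusters, clonotypes and a fraction of mitochondrial UMIs per cell, which was not used in a test. All cells were flagged by the authors as neither doublet nor dead, so such cells had been removed before deposit, and the filter criteria are not given in the sources used here. CD8 clusters, numbered from 1 to 9 in the table, were matched to C0 to C8. No per-sample column was left unused.

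UMIs were summed per pool and lineage, TEa cells set aside. Genes were filtered with filterByExpr, scaled by TMM and tested with edgeR 4.0.16 (R 4.3.3) (quasi-likelihood F test on all 9 pools), and p-values were adjusted by Benjamini-Hochberg over all genes with a threshold of 0.05. Lineages were compared with the pool as a block. Clusters were tested on pools with at least 10 cells and at least 2 pools per group, C11 on pools with at least 3 cells. Cluster levels are plain CPM. Shares were tested by the exact two-sided Jonckheere-Terpstra permutation test (Python 3.11.15, scipy 1.17.1). Alternatives were DESeq2 1.42.0, library size scaling, no filter, thinning to 2000 UMIs, cell subsets and leaving out each pool. The trend test of the CD8 Foxp3 share and its alternatives were added after seeing the data. The genes named are the 5 members, all pool-level results for them, examples from the lists, and the 3 genes most like each member among genes with at least 200 UMIs. The scripts were tested on simulated data. Promoter sequences are from RefSeq (GRCm38.p6), where Foxp3 and Ikzf1 matched. Intervals and limits cover counting error only.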

Additional observations from a re-analysis of the deposited data

Results flagged for a closer look

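The change at 50 mg/kg against saline differed between the lineages for 4 genes by the lineage by treatment interaction, given as the CD8 change minus the CD4 change on the log2 scale. It was -3.56 for Foxp3 (-2.94 in CD8 and 0.59 in CD4 cells), -0.20 for Ikzf1 (-0.79 and -0.62), 0.80 for Ikzf3 (-0.95 and -1.77) and -2.30 for Ikzf4, which was too rare for a test within either lineage under the filter. The calls of Ikzf1 and Ikzf4 were lost on leaving out some single pools, and that of Ikzf4 also with no filter. Foxp3 and Ikzf4 passed the filter through the pools where they were high, so their differences and their place among the 4 genes are a description. The pools are the replicates, with 3 per group in each lineage.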

How the results depend on the processing

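Of the values recomputed under the alternatives, 856 kept their direction and side of the threshold, while 10 single-gene values lost and 4 gained significance in the same direction. Values that changed sign and counts that moved follow, and the cause was not tested. Foxp3 in CD4 cells depended most on which cells were counted: without the Treg cluster its log2 change at 50 mg/kg was -1.55 against saline and -1.26 against 5 mg/kg, and the difference in the share of cells with a Foxp3 UMI (50 mg/kg minus saline) was -0.289 percentage points. At 5 mg/kg against saline Foxp3 in CD4 cells was 0.15 when thinned and -0.29 to 0.078 on leaving out each pool (0.078 without saline pool 3). The Foxp3 level in the Treg cluster differed by 0.0219 UMIs per cell (50 mg/kg minus saline). The difference in the share of Foxp3-positive CD4 cells with an Ikzf4 UMI was -4.66 points when thinned, and that with an Ikzf2 UMI ran from -17.8 to 1.98 points on leaving out each pool (1.98 without saline pool 1, 0.480 without 50 mg/kg pool 3). Ikzf1 differences near 0 changed sign: between the doses in CD4 cells -0.074 with library size scaling and -0.031 to 0.038 on leaving out each pool (-0.031 without 5 mg/kg pool 3, -0.016 without 50 mg/kg pool 2), between the doses in CD8 cells 0.093 outside cycling clusters, and between the lineages -0.052 with library size scaling and -0.011 to 0.031 on leaving out each pool (-0.0034, -0.0034 and -0.011 without saline pools 1, 2 and 3).

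Within CD4 clusters at 5 mg/kg, 9 of 29 tests of members were called, 5 with DESeq2, 15 with library size scaling, 5 with no filter and 5 to 10 on leaving out each pool (5 without saline pool 2). Members with a lineage difference in response numbered 0 to 1 at 5 mg/kg and 2 to 4 at 50 mg/kg on leaving out each pool, with 1 without 5 mg/kg pool 3, and 2 without 50 mg/kg pool 2 or saline pool 3. Equal hashtag numbers mark no shared animal, and deviations of same-numbered pools correlated at -0.07 to 0.08. With the replicate block Foxp3 in CD4 cells rose by 0.61 at 50 mg/kg (adjusted p = 0.00436, edgeR with Benjamini-Hochberg), and 4 members were called in each lineage at that dose. Since the block marks no shared animal, its smaller p-value adds nothing to the main fit. Low counts limit the precision for Ikzf4.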
